A study of Mus musculus with 21 samples.

Results

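The genes described here are 10 Wnt/β-catenin target genes of perivenous hepatocytes: Glul, Oat, Slc1a2, Rhbg, Lect2, Tbx3, Axin2, Lgr5, Rnf43 and Znrf3. They were chosen by name, as the non-control probes whose gene name in the array files is one of the 10. This gave 14 of 39429 probes, and 10 of the 23522 genes that could be tested. All 10 genes were tested, each through 1 probe, and 11 of the 14 probes passed the filter on dim probes, being well above background on 4 or more of the 21 arrays.

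Hepatocytes along the liver lobule differ in function. Cells around the central vein receive Wnt ligands and R-spondin from the central venous endothelium, and β-catenin there drives glutamine synthesis, ammonium uptake and drug metabolism, while cells near the portal tract make urea and glucose. The same signal switches on its own brakes (Axin2, Rnf43, Znrf3) and the R-spondin receptor Lgr5, so that these genes are read as outputs of the pathway. In mouse liver tumours with activating β-catenin mutations, Glul is a widely used marker.

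Total RNA of mice on the C57BL/6J background was labelled with Cy3 and read on 1 array per sample. The 6 KO tumours were taken from 5 Trp53 knockout mice without treatment, and their tissue label combines hepatocellular and cholangiocellular carcinoma (HCC/CCC) without saying which tumour held which. KO livers came from 4 untreated Trp53 knockout mice. The 7 DEN tumours carry the label hepatocellular carcinoma. They grew in 5 mice with wild-type Trp53 after an intraperitoneal injection at day 15 of 10 µg per g body weight of N-nitrosodiethylamine (DEN), a liver carcinogen, and WT livers came from 4 untreated mice with wild-type Trp53. The sources used here do not give ages, the deleted part of Trp53 or the cells in which it was deleted. KO tumours 5 and 6 were from KO tumour mouse 5, DEN tumours 4 and 5 from DEN mouse 4, and DEN tumours 6 and 7 from DEN mouse 5, as read from the sample titles. Tumours of 1 mouse were averaged before testing, so p-values of the main fit measure the spread between 18 mice.

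Levels below are log2 intensities minus the array's 75th percentile, so a value of 0 is the signal of a probe at that percentile. Changes are differences of group means on this log2 scale with their standard error (SE), and adjusted p-values come from limma with Benjamini-Hochberg adjustment over all 23522 genes (threshold 0.05). Trp53 stood at -2.0 ± 0.31 in KO against WT livers (adjusted p 0.0013, and 0.4 with slide as a random block). It lay well above background on only 1 of 4 KO liver arrays, so this difference is mostly against readings at background, but on 5 of 6 KO tumour arrays, and whether its probe lies in the deleted part was not checked here. The 75th percentile intensity was 951 to 4258 on KO tumour arrays and 476 to 884 on all others, with KO tumours 4 to 6 together on 1 slide at 2045 to 4258. Every slide held arrays of 1 group, and WT livers had a slide and a scan day to themselves, so group and slide cannot be told apart. Slide was therefore also fitted as a random block (estimated correlation 0.38), each tumour then counting as a sample, and the adjusted p of that fit stands beside each printed change of a gene against its livers or between the tumour kinds whose call it ended. The liver label was checked on 8 markers, whose mean level was 4.06 to 6.58 in KO tumours against 8.31 to 8.38 in KO livers, and 7.59 to 8.21 in DEN tumours against 8.03 to 8.27 in WT livers. The mean of 7 bile duct markers was -0.28 to 2.48 in KO tumours against -3.52 to -2.87 in KO livers, and -2.96 to -0.98 in DEN tumours against -3.22 to -2.53 in WT livers. KO tumours thus held less hepatocyte and more bile duct marker RNA than any other group, whereas DEN tumours overlapped WT livers on the hepatocyte markers.

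In KO tumours all 10 genes were lower than in KO livers, by 1.33 (Znrf3, whose probe was near background) to 4.19 on the log2 scale. With the slide block 3 of the 10 passed (Lect2, Rhbg and Rnf43), where 16.2% of all genes were called lower. Without the block, among all genes, 29.6% were called lower in this comparison. The median change of the 10 genes was -2.98, against -0.22 over all genes tested. In 9 of the 10 genes, all but Znrf3, no KO tumour mouse reached the lowest KO liver, a separation found in 24.8% of all genes. In DEN tumours 8 of the 10 genes were lower than in WT livers, where 11.0% of all genes were called lower, and Rhbg and Znrf3 did not pass. With the slide block 0 of the 10 passed by limma (6 at an unadjusted p under 0.05, against 9 without the block), where 0.531% of all genes were called lower. Without the block the median change was -2.88, against 0.04 over all genes, and in 7 genes no DEN mouse reached the lowest WT liver, against 13.1% of all genes. In bulk RNA, fewer perivenous hepatocytes and less of each transcript per cell cannot be told apart.

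**Figure D1:**
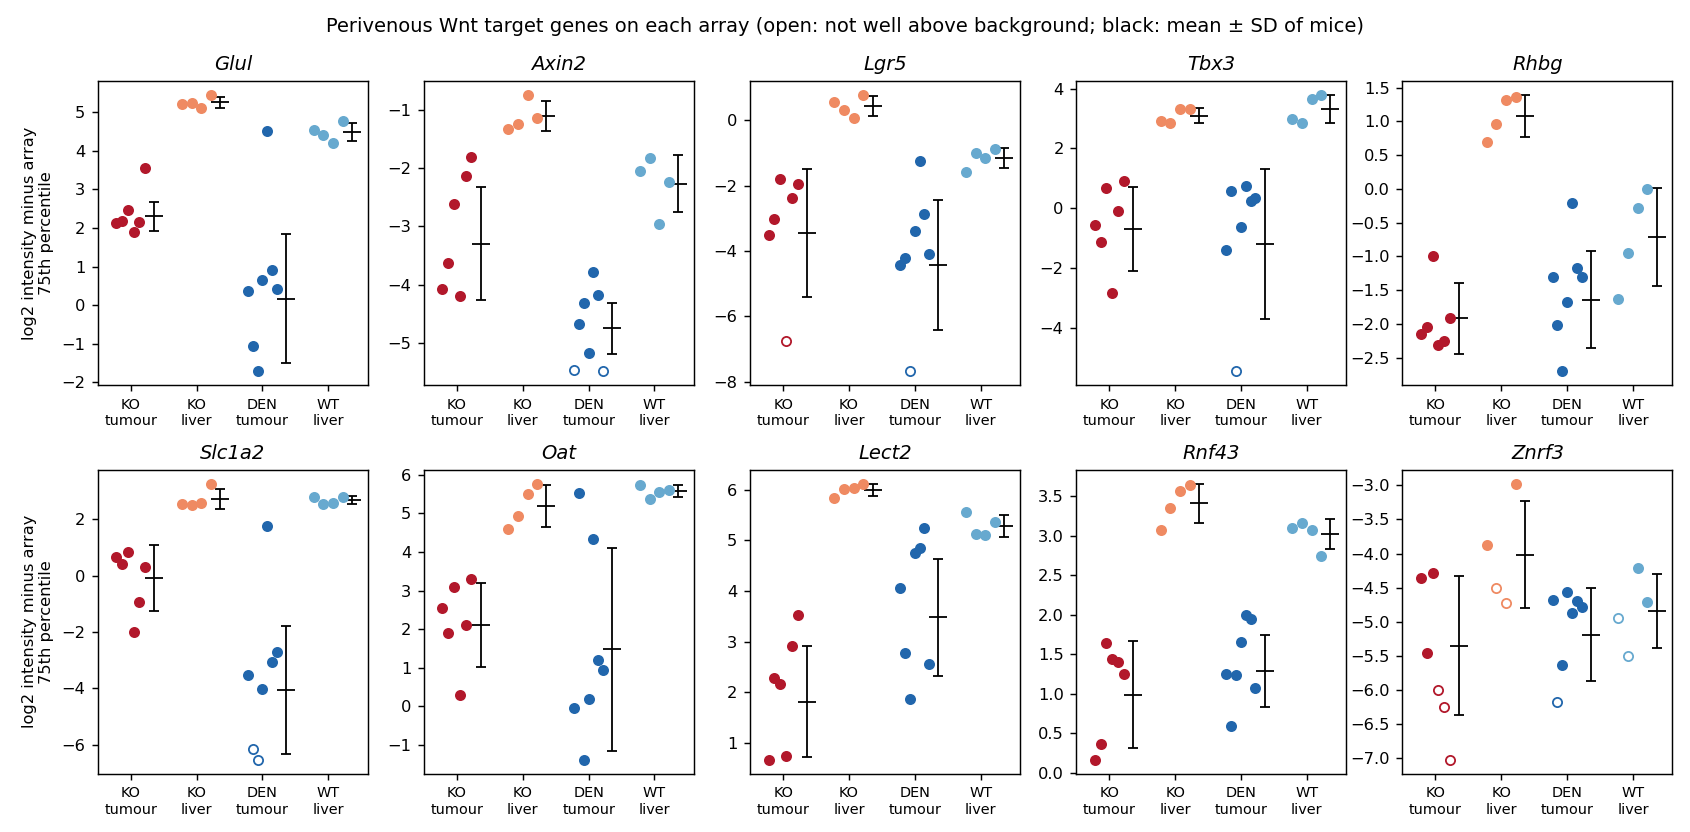
Level of each of the 10 genes on every array (log2 intensity minus the array's 75th percentile), with a separate vertical scale per gene. Filled points are well above background and open points are not, and black bars give the mean ± SD over mice (5, 4, 5 and 4 mice, left to right). KO tumours lie below KO livers on all arrays for every gene but Znrf3, and 1 DEN tumour reaches the WT livers for Glul.

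Glul (mm9 chr1:155756765-155756824) encodes glutamine synthetase, which fixes ammonium in the last row of hepatocytes before the central vein. Its level in the 6 KO tumours was 1.89 at the lowest, 2.17 at the median and 3.56 at the highest, against 5.22, 5.25, 5.12 and 5.46 in the KO livers. Every KO tumour was below every KO liver, and the change was -2.96 ± 0.58, or 7.78-fold lower (adjusted p 0.000432, and 0.0811 with the slide block). DEN tumours ranged more widely, with a lowest level of -1.72, a median of 0.43 and a highest of 4.53, against 4.53, 4.42, 4.22 and 4.78 in the WT livers. DEN tumour 5 alone lay within the range of the WT livers, and the other 6 DEN tumours were all below it. The change over DEN mice was -4.32 ± 0.58, or 20-fold lower (adjusted p 7.96e-05, and 0.106 with the slide block), and -4.93 without DEN mouse 4.

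Oat (mm9 chr7:139749726-139749785) encodes ornithine aminotransferase, which feeds ornithine into glutamate in the same cells. KO tumours had 0.30 at the lowest, 2.33 at the median and 3.31 at the highest, against 4.59, 4.92, 5.51 and 5.77 in KO livers. These groups did not overlap, and Oat fell by 3.09 ± 0.96 (adjusted p 0.0127, and 0.212 with the slide block). With KO tumours 1 to 3 alone the change was -2.69. Its adjusted p was 0.0502 without the KO tumours of the bright slide and 0.106 with scan day as a block, and it passed within scan day 1. DEN tumours had -1.39, 0.94 and 5.52 at the lowest, median and highest, against 5.74, 5.37, 5.55 and 5.61 in WT livers. DEN tumour 2 reached the WT livers at 5.52, and DEN tumour 5 came next at 4.34, while the other 5 stood at 1.19 or less. Despite this overlap the change passed at -4.09 ± 0.96 (adjusted p 0.006, and 0.264 with the slide block). It was -5.1 without DEN mouse 2 and -3.37 without DEN mouse 3.

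Slc1a2 (mm9 chr2:102617752-102617811) encodes the glutamate transporter GLT-1, which in the liver lobule is found in perivenous cells. Its level was -2.01, 0.37 and 0.82 at the lowest, median and highest in KO tumours, against 2.54, 2.49, 2.58 and 3.27 in KO livers. All 6 KO tumours were lower than all KO livers, by 2.80 ± 0.86 on the mean of the mice (adjusted p 0.0117, and 0.19 with the slide block), but the change was -2.08 ± 1.04 within scan day 1 (adjusted p 0.117). DEN tumours had -6.54, -3.54 and 1.77, against 2.80, 2.56, 2.59 and 2.80 in WT livers. DEN tumour 5 was the only one above -2.73, and 2 of the 7 were not well above background. With a fall of 6.74 ± 0.86 (adjusted p 4.72e-05, and 0.053 with the slide block), Slc1a2 had the largest change of the 10 genes in DEN tumours. It was -6.12 without DEN mouse 3 and -7.47 without DEN mouse 4. A second probe of Slc1a2 was at -2.57 ± 0.66 in KO tumours. In DEN tumours that probe was well above background on 1 of 7 arrays, so its -5.39 ± 0.66 is mostly against readings at background.

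Rhbg (mm9 chr3:88047265-88047324) encodes an ammonium transporter of the Rh glycoprotein family. KO tumours read -2.31, -2.10 and -0.99 at the lowest, median and highest, against 0.70, 0.96, 1.31 and 1.36 in KO livers. The groups were far apart, and the fall of 3.0 ± 0.39 (adjusted p 7.78e-06) passed also with slide as a random block (adjusted p 0.00148). DEN tumours read -2.70, -1.31 and -0.20, against -1.62, -0.95, -0.29 and 0.00 in WT livers. These ranges overlapped, and the difference of -0.92 ± 0.39 did not pass (adjusted p 0.101, 95% interval -1.74 to -0.11). Without DEN tumour 5, the highest DEN tumour for Rhbg and left out after the data were seen, it was -1.07 and passed (adjusted p 0.0435).

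Lect2 (mm9 chr13:56643829-56643888) encodes a secreted hepatocyte protein that was described as a target of β-catenin in mouse liver. KO tumours had 0.66 at the lowest, 2.22 at the median and 3.53 at the highest, against 5.83, 6.02, 6.03 and 6.13 in KO livers. Lect2 had the largest fall of the 10 genes in KO tumours, 4.19 ± 0.54 or 18.3-fold (adjusted p 8.12e-06), and passed with slide as a random block as well (adjusted p 0.00977). DEN tumours had 1.87, 4.07 and 5.25, against 5.56, 5.13, 5.10 and 5.37 in WT livers. DEN tumour 6 lay among the WT livers at 5.25, the other 6 were below them, and the fall was 1.81 ± 0.54 (adjusted p 0.0251, and 0.572 with the slide block). Leaving out DEN mouse 2, DEN mouse 3, WT mouse 1 or WT mouse 4 brought the adjusted p to 0.0598, 0.0598, 0.0672 and 0.051. It was 0.0586 under normexp background correction with quantile scaling, and 0.0684 with each tumour as a sample.

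Tbx3 (mm9 chr5:120134511-120134570), a transcriptional repressor, read -2.84, -0.34 and 0.90 at the lowest, median and highest in KO tumours, against 2.93, 2.84, 3.32 and 3.30 in KO livers. In DEN tumours it read -5.44, 0.24 and 0.75, against 2.99, 2.86, 3.66 and 3.78 in WT livers. No tumour of either kind reached the livers, and DEN tumour 3, at -5.44, was not well above background. The changes were -3.79 ± 0.96 in KO tumours (adjusted p 0.00343, and 0.0993 with the slide block) and -4.50 ± 0.96 in DEN tumours (adjusted p 0.0032, and 0.208 with it). Without DEN mouse 3 the DEN change was -3.44.

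The remaining 4 genes act in the pathway itself. Axin2 (mm9 chr11:108812034-108812093) encodes a scaffold of the complex that destroys β-catenin and is the general negative feedback target of the pathway. KO tumours had -4.19, -3.12 and -1.81 at the lowest, median and highest, against -1.33, -1.24, -0.75 and -1.15 in KO livers. DEN tumours had -5.48, -4.67 and -3.78, against -2.05, -1.84, -2.97 and -2.23 in WT livers. Neither pair of groups overlapped, and 2 of the 7 DEN tumours were not well above background. Axin2 fell by 2.18 ± 0.40 in KO tumours (adjusted p 0.000235, and 0.0625 with the slide block) and by 2.48 ± 0.40 in DEN tumours (adjusted p 0.00038, and 0.101 with it).

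Lgr5 (mm9 chr10:114887403-114887462) encodes a receptor for R-spondins that marks Wnt-receiving cells. Its level was -6.74, -2.70 and -1.79 at the lowest, median and highest in KO tumours, against 0.54, 0.30, 0.08 and 0.77 in KO livers. All KO tumours were lower, KO tumour 4 being not well above background, and the change was -3.87 ± 0.94 or 14.6-fold lower (adjusted p 0.00243, and 0.0982 with the slide block). Without KO tumour mouse 4 the change was -3.04. DEN tumours had -7.68, -4.08 and -1.26, against -1.59, -1.0, -1.17 and -0.87 in WT livers. DEN tumour 5 was again within the WT liver range, DEN tumour 3 was not well above background, and the fall was 3.28 ± 0.94 (adjusted p 0.0195, and 0.459 with the slide block). Without DEN mouse 3 the change was -2.46.

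Rnf43 (mm9 chr11:87548958-87549017) and Znrf3 (mm9 chr11:5180918-5180977) encode related ubiquitin ligases that remove Wnt receptors from the cell surface. Rnf43 had 0.16, 1.32 and 1.65 at the lowest, median and highest in KO tumours, against 3.07, 3.35, 3.56 and 3.63 in KO livers. In DEN tumours it had 0.59, 1.24 and 2.0, against 3.09, 3.16, 3.07 and 2.74 in WT livers. Every tumour was below every liver of its comparison, with changes of -2.42 ± 0.30 in KO tumours (adjusted p 6.44e-06) and -1.73 ± 0.30 in DEN tumours (adjusted p 0.000741, and 0.103 with the slide block). The Znrf3 probe was dim, well above background on 3 of 6 arrays of KO tumours, 2 of 4 of KO livers, 6 of 7 of DEN tumours and 2 of 4 of WT livers. It read -7.03, -5.73 and -4.28 in KO tumours, against -3.88, -4.50, -4.73 and -2.97 in KO livers. In DEN tumours it read -6.18, -4.78 and -4.56, against -4.95, -5.51, -4.21 and -4.71 in WT livers. It overlapped in both comparisons. The change was -1.33 ± 0.50 in KO tumours, where it passed (adjusted p 0.0353, and 0.131 with the slide block), and -0.35 ± 0.50 in DEN tumours, where it did not (adjusted p 0.684). The pass in KO tumours ended within scan day 1, at -0.68 (adjusted p 0.209), and when KO liver 1, KO liver 4 or KO tumour mouse 2, 4 or 5 was left out. The second probes of Lgr5 and Axin2 were well above background on no KO tumour or KO liver array. They averaged -8.54 and -7.74 in KO tumours, against -6.86 and -6.50 in KO livers. In DEN tumours they averaged -8.15 and -7.03, against -7.14 and -6.66 in WT livers, the Axin2 probe being well above background on 1 of 7 DEN arrays. Readings at background were thus lower on average in both kinds of tumour. Their part in the Znrf3 change, and in the changes of other genes with tumours at background, was not tested.

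**Figure D2:**
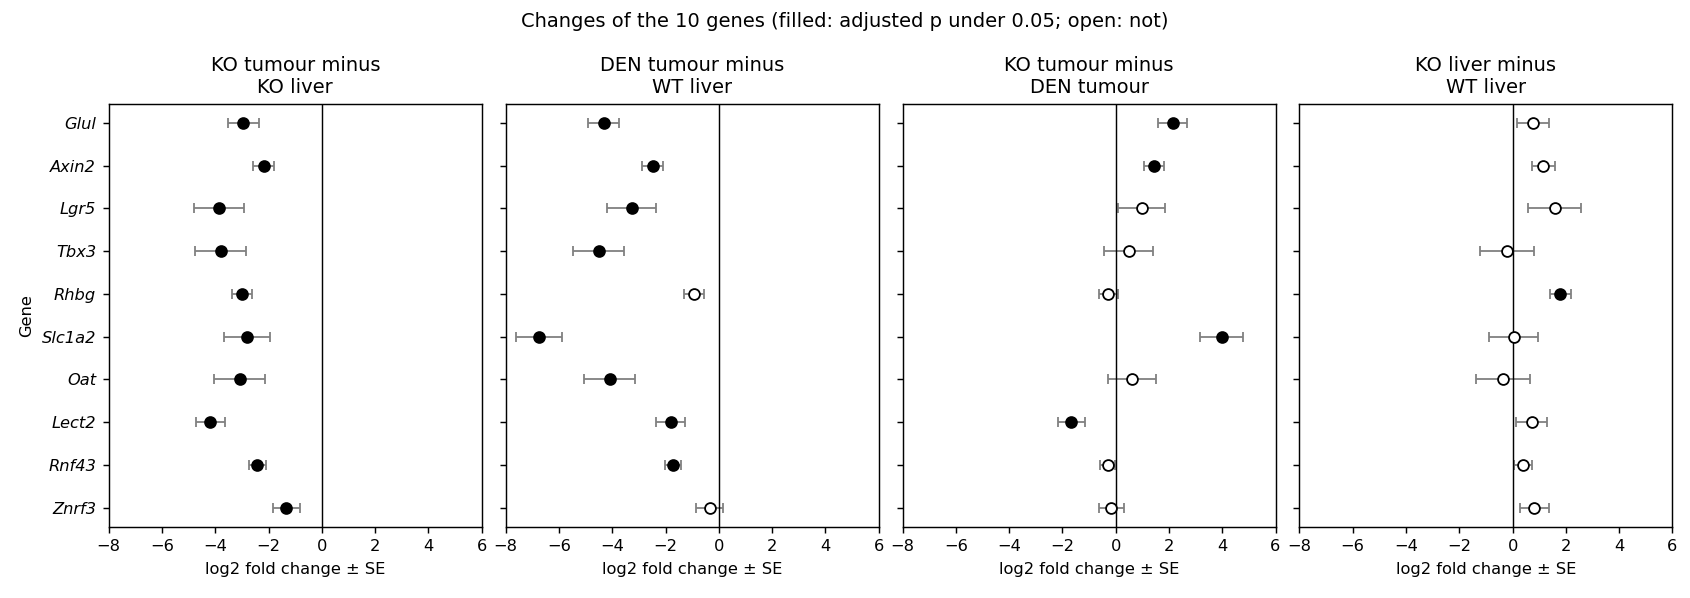
Log2 fold change of each gene with its standard error in 4 comparisons. Filled points passed an adjusted p of 0.05. All 10 points of KO tumour minus KO liver lie left of 0, and KO tumour minus DEN tumour has Glul, Axin2 and Slc1a2 to the right and Lect2 to the left.

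Within scan day 1, which held KO tumours 1 to 3 and all KO livers, 8 of the 10 genes passed downward in KO tumours, Slc1a2 and Znrf3 being the exceptions, where 30.1% of all genes were called lower. The same changes came from the fits without the bright slide and with scan day as a block, which differ only in the spread.

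KO tumours were set against DEN tumours to ask how the tumour models differ. Of the 10 genes, 3 rose and 1 fell, against 19.9% of all genes called higher and 37.5% called lower, and the median change was 0.55 against -0.33 over all genes. Over all genes the calls were 4671 higher and 8819 lower, and 5924 higher and 6656 lower under normexp background correction with quantile scaling. Slc1a2 was 3.97 ± 0.81 higher in KO tumours (15.7-fold, adjusted p 0.000597, and 0.059 with the slide block), with mouse means of -0.08 ± 1.16 in KO tumours and -4.05 ± 2.27 in DEN tumours (SD, n = 5 mice each). Glul was 2.14 ± 0.55 higher (4.39-fold, adjusted p 0.00341, and 0.18 with the slide block), at 2.30 ± 0.37 in KO tumours and 0.17 ± 1.67 in DEN tumours. Axin2 was 1.45 ± 0.38 higher (adjusted p 0.0037), at -3.30 ± 0.96 and -4.75 ± 0.44 in KO and DEN tumours. Lect2 went the other way, with -1.67 ± 0.51 (adjusted p 0.0104) and means of 1.81 ± 1.10 in KO tumours and 3.48 ± 1.16 in DEN tumours.

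Of these 4, only the mice of the Axin2 comparison did not overlap, a separation upward found in 10.8% of all genes. Axin2 also passed with slide as a random block (1.66 ± 0.64, adjusted p 0.0454) and within scan day 1 (1.47 ± 0.50, adjusted p 0.0342). With scan day as a block it was at 1.47 ± 0.57 (adjusted p 0.0469). That is the same difference, as only scan day 1 held both tumour kinds. Its DEN tumours were 1, 5 and 7, and Axin2 was not well above background in DEN tumours 1 and 7 (-5.46 and -5.48). DEN tumour 5 (-3.78) lay above KO tumour 1 (-4.07) on that day. Single tumours thus overlapped for Axin2, and DEN tumours 5 and 6 (-3.78 and -4.18) lay above KO tumour 4 (-4.19). Lect2 was at -2.12 ± 0.58 within scan day 1 (adjusted p 0.0132) and at -1.69 ± 0.90 with the slide block (adjusted p 0.142). Within scan day 1, which includes DEN tumour 5, Slc1a2 was at 2.14 ± 1.11 (adjusted p 0.134) and Glul at 0.48 ± 0.92 (adjusted p 0.683). Without DEN tumour 5, over all days, both were larger, Slc1a2 at 4.55 (adjusted p 2.58e-05) and Glul at 2.52 (adjusted p 5.07e-05). DEN tumour 5 was left out after the data were seen. As it was the highest DEN tumour for both genes, larger differences had to follow. The other 6 genes did not pass, with changes between -0.29 and 0.98, and their intervals were wide: the 95% interval ran from -0.88 to 2.85 for Lgr5, from -1.43 to 2.40 for Tbx3 and from -1.29 to 2.53 for Oat.

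The difference between the tumour effects, each against its own livers, passed for 3 genes, against 31.0% of all genes. Slc1a2 fell less in KO than in DEN tumours, by 3.94 ± 1.21 (adjusted p 0.0217). Lect2 fell more, by 2.39 ± 0.77 (adjusted p 0.0269), as did Rhbg, by 2.07 ± 0.55 (adjusted p 0.00939). For Rhbg the tumours were close, with means of -1.91 in KO and -1.64 in DEN tumours, while the livers stood at 1.08 (KO) and -0.71 (WT). None of the 3 passed with slide as a random block (adjusted p 0.435, 0.383 and 0.143 in the same order). Slc1a2 also missed with each tumour as a sample (adjusted p 0.0892), and Lect2 under normexp with quantile scaling (adjusted p 0.0556). For Glul the difference was 1.36 ± 0.82 (adjusted p 0.218), and 1.75 without DEN tumour 5 (adjusted p 0.0295), which was left out after the data were seen.

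Slc1a2, Lect2, Glul and Axin2 were the 4 genes called between KO and DEN tumours. To show the sequence next to their start, the 250 bases before the annotated start were taken from RefSeq (build GRCm38.p6). There 6 of the 10 genes had an entry, and the windows of all 6 were searched. The search covered both strands for CTTTGA, the core letters of the TCF/LEF motif through which β-catenin acts, and its reverse complement TCAAAG. The letters overlap CAAAG of the motif bound by the hepatocyte factor HNF4A. Matches are in capitals, and each sequence runs 5′ to 3′ on the strand of its gene.
Slc1a2, chr2:102706188-102706437, plus strand: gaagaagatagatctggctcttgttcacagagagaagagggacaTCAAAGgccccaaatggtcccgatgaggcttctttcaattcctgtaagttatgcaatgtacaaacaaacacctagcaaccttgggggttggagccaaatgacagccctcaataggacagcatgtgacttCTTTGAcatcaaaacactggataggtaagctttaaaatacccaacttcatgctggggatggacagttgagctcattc
Lect2, chr13:56548539-56548788, minus strand: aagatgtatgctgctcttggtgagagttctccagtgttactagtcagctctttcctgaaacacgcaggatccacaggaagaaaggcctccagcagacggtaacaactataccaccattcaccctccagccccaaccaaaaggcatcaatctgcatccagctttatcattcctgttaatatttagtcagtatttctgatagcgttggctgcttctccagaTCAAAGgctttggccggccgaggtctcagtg
Glul, chr1:153899679-153899928, plus strand: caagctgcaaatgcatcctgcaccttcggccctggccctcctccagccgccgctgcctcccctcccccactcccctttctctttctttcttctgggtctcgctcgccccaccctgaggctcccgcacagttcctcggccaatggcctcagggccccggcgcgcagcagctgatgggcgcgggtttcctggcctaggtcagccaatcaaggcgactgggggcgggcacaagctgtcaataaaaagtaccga
Axin2, chr11:108920099-108920348, plus strand: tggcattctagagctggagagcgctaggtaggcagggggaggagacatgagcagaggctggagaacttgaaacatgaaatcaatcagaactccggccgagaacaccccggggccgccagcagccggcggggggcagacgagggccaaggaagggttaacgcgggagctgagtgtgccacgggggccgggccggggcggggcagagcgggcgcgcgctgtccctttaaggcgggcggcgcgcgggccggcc
Slc1a2 held 2 matches, 206 and 77 bases before the start, and Lect2 held 1, 31 bases before it. Glul and Axin2 held none in this window, nor did Oat or Rnf43. Of all 32851 windows of the same length, 13.8% held a match. A match in these letters is a description of the sequence.

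KO livers were compared with WT livers to ask what the knockout alone did to the genes. Rhbg rose by 1.80 ± 0.41 in KO livers (3.48-fold, adjusted p 0.0139, and 0.655 with the slide block), the only call among the 10 genes, against 1.83% of all genes called higher. Its means were 1.08 ± 0.31 in KO livers and -0.71 ± 0.73 in WT livers (SD, n = 4 mice each), without overlap. Glul, Axin2, Lgr5 and Lect2 were also higher in every KO liver than in every WT liver, so that 5 of 10 genes were separated upward, against 10.8% of all genes. They did not pass: Axin2 was at 1.15 ± 0.42 (adjusted p 0.102), Lgr5 at 1.58 ± 0.99 (adjusted p 0.37), Glul at 0.77 ± 0.61 (adjusted p 0.493) and Lect2 at 0.71 ± 0.57 (adjusted p 0.498). Under normexp background correction with quantile scaling, 4 genes passed (Axin2, Lgr5, Rhbg and Znrf3). With slide as a random block 0 passed by limma (1 at an unadjusted p under 0.05), and as all KO livers shared 1 slide and all WT livers another, group and slide cannot be told apart. Slc1a2 differed by 0.03 ± 0.90 (95% interval -1.87 to 1.94).

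Over all 4 groups, Glul was highest in KO livers, then WT livers, KO tumours and DEN tumours. The neighbours in this order differed by limma between the tumour kinds but not between the livers, and WT livers were not compared with KO tumours. The same order of group means held for Axin2, Lgr5 and Slc1a2, whereas Lect2 ran KO livers, WT livers, DEN tumours and KO tumours, and Tbx3 and Oat were highest in WT livers.

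Single tumours differed in how many of the genes were low. KO tumours 2, 4, 5 and 6 had all 10 genes below the lowest KO liver, and KO tumours 1 and 3 had 9. Among DEN tumours the count ran between 6 and 10. DEN tumour 3 had 10 genes below the lowest WT liver and a median change of -4.81. DEN tumour 5 had 6, with a median change of -0.68. It came from the same mouse as DEN tumour 4, whose median change was -2.57. Between these tumours of 1 mouse, 9 of 10 genes were higher in tumour 5, with a median difference of 1.43 and 5.80 for Slc1a2, 4.15 for Oat and 3.89 for Glul. Tumours 6 and 7 of DEN mouse 5 differed by a median of -0.37 (tumour 7 minus tumour 6), and tumours 5 and 6 of KO mouse 5 by 0.53 (tumour 6 minus tumour 5). In DEN tumour 2, Oat stood at 5.52 with Glul at -1.06 and Slc1a2 at -6.15, so these perivenous genes did not move as 1 block there.

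**Figure D3:**
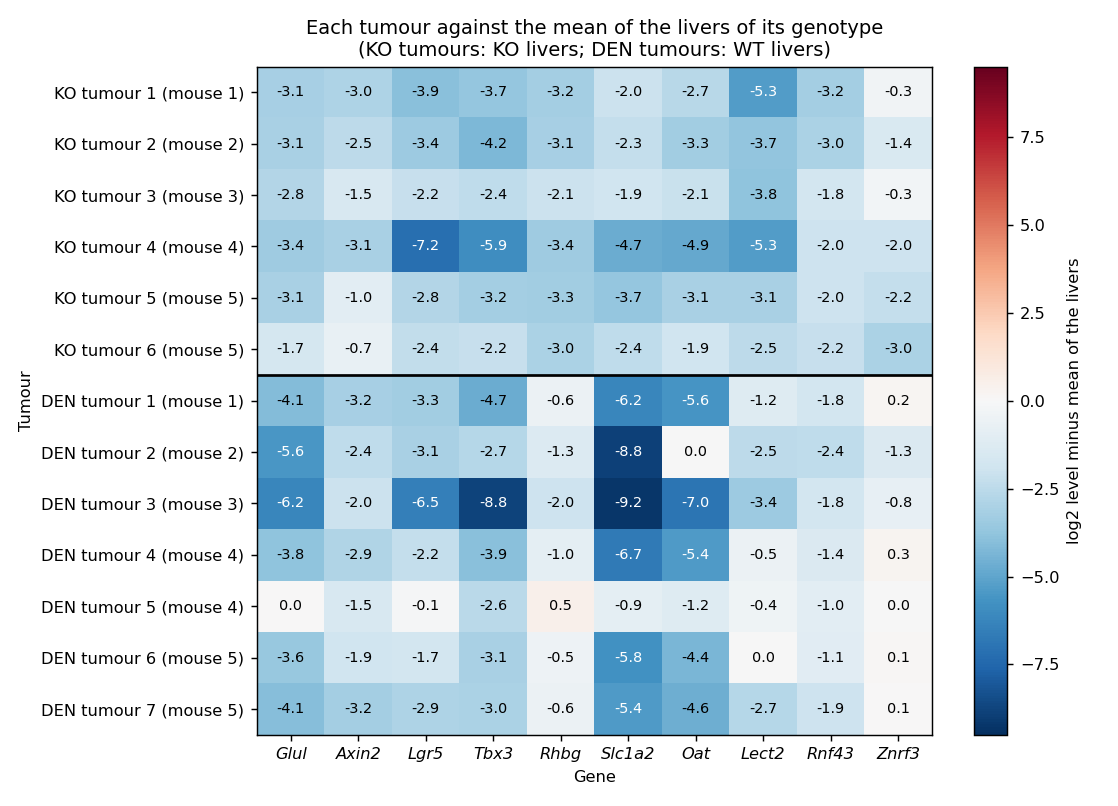
Log2 level of each gene in each tumour minus the mean of the livers of its genotype (KO livers for KO tumours, WT livers for DEN tumours). Blue is lower than liver and red higher. The row of DEN tumour 5 is pale for Glul, Lgr5 and Rhbg, that of DEN tumour 3 is dark for Slc1a2, Tbx3 and Oat, and DEN tumour 2 is pale for Oat alone among the enzymes.

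Other genes of perivenous hepatocytes were low in the same tumours. Of 14 listed genes, 12 were tested. In KO tumours 11 fell (median change -5.56), where 29.6% of all genes were called lower. In DEN tumours 11 fell (median -4.47), where 11.0% of all genes were called lower. Slc13a3 was the exception in both, at -0.90 (adjusted p 0.133) and 0.12 (adjusted p 0.895). Cyp2e1, which oxidises ethanol and activates DEN, averaged 4.30 ± 1.15 in KO tumours against 8.30 ± 0.11 in KO livers, and 3.46 ± 2.49 in DEN tumours against 8.65 ± 0.10 in WT livers. The changes were -4.00 ± 0.91 (adjusted p 0.00149, and 0.0863 with the slide block) and -5.19 ± 0.91 (adjusted p 0.000731, and 0.172 with it). DEN tumour 5 had the highest Cyp2e1 of the DEN tumours, at 8.14, and DEN tumour 3 the lowest, at -0.05. The drug-metabolising cytochromes Cyp2c37 and Cyp1a2 fell in both kinds of tumour. Cyp2c37 changed by -5.96 ± 0.61 in KO tumours and -5.15 ± 0.61 in DEN tumours, and Cyp1a2 by -6.24 ± 0.79 and -4.13 ± 0.79. With the slide block the DEN changes had adjusted p of 0.068 and 0.148. Between the tumour kinds, 3 of 12 fell in KO against DEN tumours (Cyp2c29, Nr1i3 and Cyp1a2, the last with an adjusted p of 0.0765 under the slide block) and 0 rose. Among all genes, 37.5% were called lower and 19.9% higher in that comparison. In KO against WT livers 0 of 12 passed by limma, nor did any have an unadjusted p under 0.05. In the fit with the slide block 10 still passed in KO tumours and 0 in DEN tumours, where 11 had an unadjusted p under 0.05 by limma. That fit called 16.2% of all genes lower in KO tumours and 0.531% in DEN tumours.

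Periportal genes separated the tumour kinds. All 12 tested fell in KO tumours (median -5.04, with 29.6% of all genes called lower). In DEN tumours 0 of 12 were called by limma (median -0.86, 3 at an unadjusted p under 0.05, with 11.0% of all genes called lower). The difference of the effects passed downward for 10 of 12 (18.3% of all genes). Under the slide block these counts were 11, 0 and 2, and without the KO tumours of the bright slide 1 rose and 3 fell in DEN tumours. The periportal mean was -1.27, -0.01 and -0.20 in KO tumours 1 to 3, against 5.33 to 5.68 in KO livers. It was 2.93, 1.74 and 2.35 in KO tumours 4 to 6 of the bright slide. These 2 sets of KO tumours differed in slide and scan day, whose part was not tested. Gls2, the periportal glutaminase, averaged 1.28 ± 1.44 in KO tumours against 6.42 ± 0.18 in KO livers, and 5.82 ± 0.54 in DEN tumours against 6.16 ± 0.21 in WT livers. Its changes were -5.15 ± 0.53 (adjusted p 8.63e-07) and -0.34 ± 0.53 (adjusted p 0.708). The urea cycle enzymes Arg1 and Cps1 fell by 3.21 ± 0.32 and 5.71 ± 0.80 in KO tumours, and stood at 0.22 ± 0.32 and -0.73 ± 0.80 in DEN tumours. The hepatocyte markers did the same: 8 of 8 fell in KO tumours (median -3.15) and 0 of 8 passed by limma in DEN tumours (median -0.23, 0 at an unadjusted p under 0.05), with Alb at -2.94 ± 0.44 and -0.26 ± 0.44 and the factor Hnf4a at -2.63 ± 0.36 and -0.20 ± 0.36. Bile duct markers rose in KO tumours (7 of 7, with 21.6% of all genes called higher) and in part in DEN tumours (3 of 7, with 10.6% of all genes called higher), Epcam by 6.43 ± 0.78 and Krt19 by 4.63 ± 1.10 in KO tumours. In KO tumour 4, however, Krt19 was at -3.98, below the KO livers (-3.54 to -2.90), and the other KO tumours had 1.05 to 3.41. The bile duct mean was 2.10, 1.57 and 2.48 in KO tumours 1 to 3, and -0.28, 0.52 and 0.83 in KO tumours 4 to 6. In DEN tumours, then, 8 of the 10 genes and 11 of 12 other perivenous genes fell, but 0 of them passed with the slide block. No hepatocyte or periportal marker was called in DEN tumours without the block. The periportal mean was nevertheless 3.58 to 5.44 in DEN tumours, against 5.26 to 5.62 in WT livers. In KO tumours members of all these lists fell. The part of hepatocyte content in the fall of the 10 genes was not tested.

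**Figure D4:**
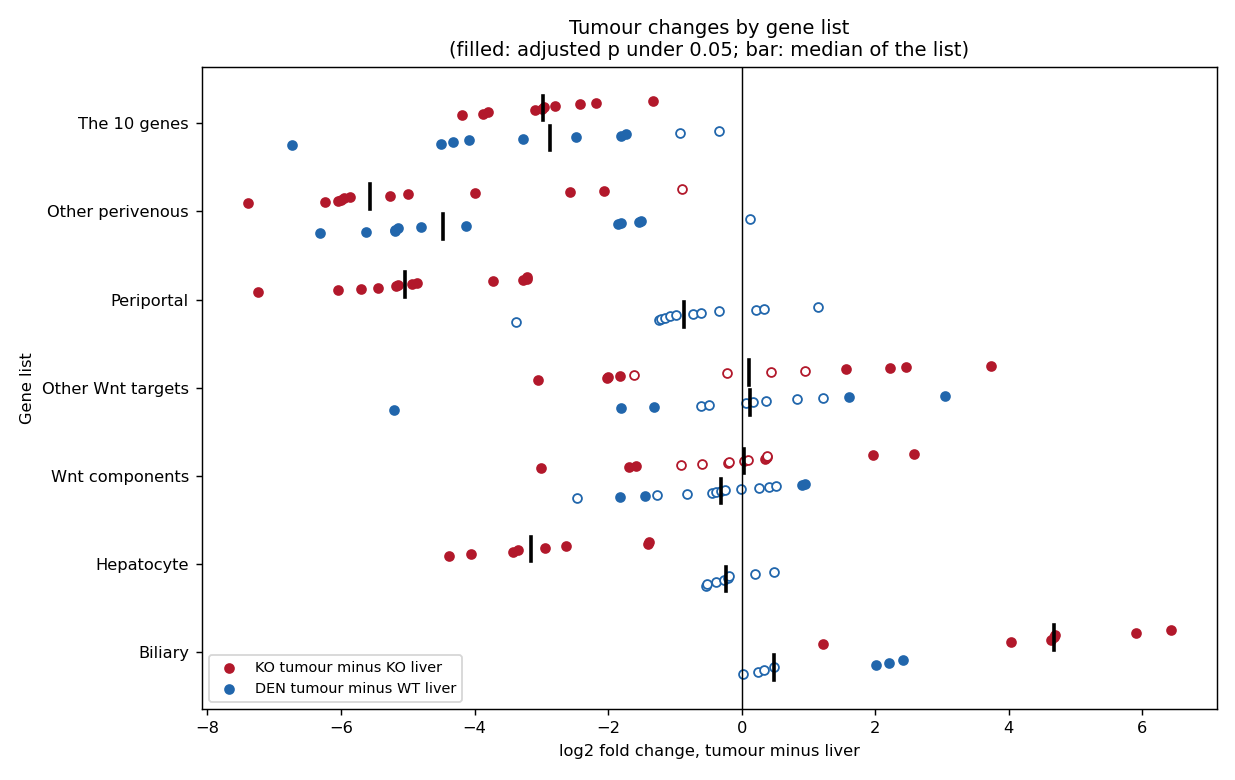
Log2 fold change of each gene by list, in KO tumours against KO livers (upper row of each list) and in DEN tumours against WT livers (lower row). Filled points passed an adjusted p of 0.05 and black bars are list medians. The perivenous medians lie left of 0 in both rows (-5.56 and -4.47 for the 12 other perivenous genes), and the periportal medians are -5.04 in KO tumours and -0.86 in DEN tumours.

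**Figure D5:**
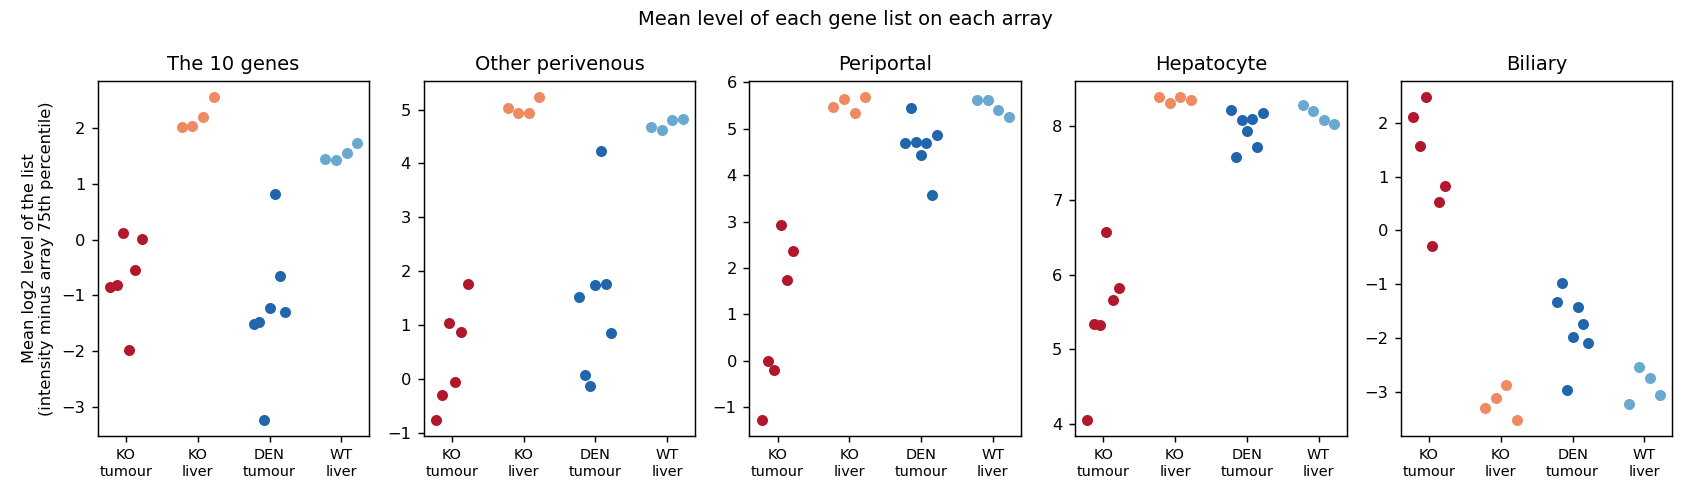
Mean log2 level of 5 gene lists on each array. KO tumours lie below all other arrays on the periportal and hepatocyte lists and above them on the biliary list, and DEN tumour 5 is the highest DEN tumour on both perivenous lists.

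Markers of other cell types were counted against the shares of all genes, 21.6% called higher and 29.6% lower in KO tumours and 10.6% and 11.0% in DEN tumours. Of 7 endothelial markers, 1 rose and 3 fell in KO tumours and 2 rose in DEN tumours. Of 7 stellate and fibroblast markers, 5 rose and 1 fell in KO tumours and 0 passed by limma in DEN tumours (1 at an unadjusted p under 0.05), where the median change was 0.35. Of 6 macrophage markers, 3 rose and 3 fell in KO tumours and 2 rose in DEN tumours. The endothelial mean was -2.16 to 0.28 in KO tumours against -0.26 to -0.05 in KO livers, and -1.10 to 0.45 in DEN tumours against -0.65 to 0.03 in WT livers. Under the slide block no gene of these 3 lists or of the bile duct list passed in DEN tumours by limma, 4 of their genes having an unadjusted p under 0.05. The part of these cells in the changes of the 10 genes was not tested.

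General Wnt targets went in both directions. Of 13 listed, 12 were tested, and in KO tumours 4 rose (Cd44, Lef1, Myc and Ascl2) and 4 fell (Nkd1, Ephb2, Ephb3 and Notum), with a list median of 0.11, against 21.6% of all genes called higher and 29.6% lower. In DEN tumours 2 rose (Ascl2 and Myc) and 3 fell (Sp5, Nkd1 and Tnfrsf19), with a median of 0.12, against 10.6% and 11.0% of all genes. Under the slide block 3 rose and 2 fell in KO tumours, and 0 passed in DEN tumours by limma (3 at an unadjusted p under 0.05). Cd44, a hyaluronan receptor, averaged 3.33 ± 0.79 in KO tumours against -0.41 ± 0.13 in KO livers, a rise of 3.73 ± 0.37 (adjusted p 5.9e-07), and was at 0.36 ± 0.37 in DEN tumours (adjusted p 0.544). Lef1, a nuclear partner of β-catenin, rose by 1.55 ± 0.25 in KO tumours. Nkd1, a feedback inhibitor, fell by 3.05 ± 0.45 in KO tumours and by 1.80 ± 0.45 in DEN tumours, but the DEN change was -0.57 (adjusted p 0.524) on the mean of its probes, and its adjusted p was 0.353 with the slide block. Notum, an enzyme that inactivates Wnt ligands, fell by 1.83 ± 0.57 in KO tumours (adjusted p 0.0135, 0.0715 with the slide block and 0.118 under normexp with quantile scaling), and stood at 0.17 ± 0.57 in DEN tumours. Only KO tumours 1 to 3 were clearly low, at 1.12, 1.49 and 1.35, against 4.19 to 4.43 in KO livers. KO tumours 4 to 6, together on the bright slide, had Notum at 4.50, 4.31 and 4.03.

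Sp5, a repressor induced by Wnt, was another gene of the general list that differed between the tumour kinds. It averaged -2.17 ± 1.30 in KO tumours against -0.56 ± 0.45 in KO livers (-1.61 ± 0.77, adjusted p 0.0902), and -5.30 ± 1.86 in DEN tumours against -0.09 ± 0.24 in WT livers (-5.21 ± 0.77, adjusted p 0.000185, and 0.091 with the slide block). DEN tumour 5 again had the highest value of the DEN tumours, -1.94, and DEN tumour 3 the lowest, -7.73, with 4 of 7 well above background. Between the tumours Sp5 was 3.13 ± 0.73 higher in KO tumours (adjusted p 0.00168, 0.0894 with the slide block and 0.0655 with scan day as a block). It was 1 of 6 genes of the list that rose there, while 2 fell, against 19.9% and 37.5% of all genes.

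Of 18 components of the pathway, 15 were tested. In KO tumours 2 rose (Bcl9 and Rspo1) and 3 fell (Lgr4, Apc and Rspo3), and in DEN tumours 2 rose (Lrp5 and Tcf7l2) and 2 fell (Bcl9l and Rspo3), read against the same shares of all genes. Ctnnb1, which encodes β-catenin, did not pass in any comparison, at 0.37 ± 0.17 in KO tumours (adjusted p 0.0751) and 0.40 ± 0.17 in DEN tumours (adjusted p 0.1). Rspo3, the R-spondin of the central venous endothelium, fell in both, to -0.39 ± 0.69 in KO tumours against 1.30 ± 0.12 in KO livers (-1.69 ± 0.52, adjusted p 0.0121) and to -1.40 ± 1.35 in DEN tumours against 0.43 ± 0.31 in WT livers (-1.83 ± 0.52, adjusted p 0.0188). Both calls ended with slide as a random block (adjusted p 0.216 and 0.454), and the DEN call without WT liver 1 or 2 (0.0529 and 0.0515). Lgr4, the widely expressed R-spondin receptor, fell by 1.58 ± 0.22 in KO tumours (adjusted p 1.65e-05) and was at -0.01 ± 0.22 in DEN tumours. Apc, a scaffold of the destruction complex, fell by 3.0 ± 0.46 in KO tumours (adjusted p 4.25e-05), and was at 0.51 ± 0.46 in DEN tumours. Bcl9, a co-activator, was above background on 5 of 6 KO tumour arrays and on none of the KO liver arrays, and was at least 1.5-fold higher in KO tumours (adjusted p 0.00258, and 0.0574 with the slide block), set against the lowest signal well above background. Rspo1, another R-spondin, was 2.57 ± 0.99 higher in KO tumours (adjusted p 0.0389), with 2 of 4 KO livers well above background, and its adjusted p was 0.318 with the slide block and 0.0652 under normexp with quantile scaling. The Rspo1 call also ended when KO liver 1, 2 or 4 or KO tumour mouse 1, 3 or 5 was left out. In DEN tumours the Wnt co-receptor Lrp5 rose by 0.95 ± 0.23 (adjusted p 0.00707, and 0.218 with the slide block), and Bcl9l, a relative of Bcl9, fell by 1.44 ± 0.33 (adjusted p 0.005, and 0.171 with the slide block). Tcf7l2, a TCF factor that binds β-catenin, was at 0.90 ± 0.27 in DEN tumours (adjusted p 0.0248, and 0.381 with the slide block), but at -0.57 on the mean of its probes, and its call ended without DEN mouse 1 or WT liver 1 or 2. In KO against DEN tumours 5 components rose and 4 fell, against 19.9% and 37.5% of all genes. Pygo2, a co-activator, was at 0.97 ± 0.17 there (adjusted p 0.000193) and Apc at -3.52 ± 0.43 (adjusted p 8.48e-06). Tcf7l2, among the 4 that fell, passed in the opposite direction on the mean of its probes (0.77, adjusted p 0.00577). In KO against WT livers Ccnd1 rose by 2.26 ± 0.47 (adjusted p 0.00948) and Csnk1a1 by 0.73 ± 0.20 (adjusted p 0.0295), 1 gene from each list, and neither passed with slide as a random block (adjusted p 0.649 and 0.76). Csnk1a1 also missed in each of 6 fits that left out a KO or WT liver (adjusted p 0.055 to 0.12).

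For 3 of the genes, the genes with the most similar pattern were sought over the 18 mice, by the root mean square difference of levels centred on each gene's own mean, among 23275 genes with a value in every mouse. Nearest to Glul, whose levels had an SD of 2.22 over the mice, were a transcript with no gene name (0.57), Csad (0.83), Acot1 (0.84), Sp5 (0.90) and Dio1 (0.91). The closest of the 10 genes to Glul was Lgr5, at rank 16 (1.07). Nearest to Lgr5 (SD 2.38) were Cntfr (0.94) and Tbx3 (0.95), the second of which is among the 10, before the same unnamed transcript (1.0), Lhpp and Nxpe2 (1.03 each). Nearest to Axin2 (SD 1.48) were Rai2 (0.46), Aspa (0.64), Ntn1 (0.70), Amigo1 (0.72) and Iglon5 (0.73), with Rnf43 the closest of the 10 at rank 44 (0.89). Mice of 1 group share tissue. KO livers shared 1 slide and WT livers another, and tumours of each kind lay on 2 slides and 2 scan days.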

How the data were processed

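RNA of 21 mouse liver samples was read on 1-colour Agilent arrays, 1 array per sample. The scanner intensity columns are those the authors deposited, extracted with Agilent Feature Extraction 10.7.3.1 per the submitters' processing notes, and per the file headers the processed signal is a background-subtracted intensity. It was taken to log2 and the array's 75th percentile was subtracted. The log2 values of the deposited value table were used as an alternative, since each of its columns followed its own array (correlation at least 0.9997, against at most 0.858 with any other array) with a median absolute difference of at most 0.0011. The column medians of that table ran from -0.57 to 0.30. Its direction is that of the signal, while the sources used here do not say how it was scaled and centred.

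Control probes were left out, as were values flagged as outliers (969 missing). Of 39429 probes, 30395 were well above background on at least 4 arrays and were kept, and 5 spots were saturated. Gene names were taken from RefSeq by accession (26761 probes, and 94 by another accession) or symbol (4376), with the name in the files otherwise (8198). Of several probes for a gene, the brightest on average was used, and the others are given beside it where they passed the filter. Dim second probes of Lgr5 and Axin2 are given only to show readings at background.

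Tumours of 1 mouse were averaged. With scan day as a block, which left out WT livers, they were averaged only within a scan day, giving 16 samples. All 4 groups were fitted in 1 model of group means with lmFit and eBayes of limma 3.58.1 (R 4.3.3, data.table package 1.17.8), with 14 residual and 2.62 prior degrees of freedom and no covariates, and p-values were adjusted over 23522 genes by Benjamini-Hochberg (threshold 0.05). They measure the spread between mice, and the number of arrays limits their precision. Values are mean ± SD or change ± SE. The scripts were tested on simulated data.

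The 10 genes and the gene lists were chosen with earlier results of these data known. Beside the 10 genes, the text names up to 2 genes that passed upward and 2 downward with the smallest adjusted p per pathway list and comparison, and a set of genes fixed by name (such as Cyp2e1, Ctnnb1 and Alb). Genes shown for their likeness to Glul, Axin2 and Lgr5 are the 5 nearest. Sp5, Ccnd1, Csnk1a1 and others follow from the first part of the rule, and lists of at most 5 called genes are spelled out. The alternatives covered background correction, scaling, filters, probes, tumours as samples, slide, scan day and each mouse left out. Leaving out DEN tumour 5 was chosen after seeing the data.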

Additional observations from a re-analysis of the deposited data

Results flagged for a closer look

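Each of the 10 genes was checked for an array far from the rest of its group, in all 40 combinations of gene and group. The highest or lowest array stood apart in 6 of them, where chance gives about 1 in 20. Glul was high in KO tumour 6, at 3.56, and in DEN tumour 5, at 4.53. Rhbg was high in KO tumour 3, at -0.99, and Slc1a2 in KO liver 4, at 3.27. Lgr5 was low in KO tumour 4, at -6.74, and Tbx3 in DEN tumour 3, at -5.44, and neither of these 2 readings was well above background.

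The tumour effects of the 2 models, each against its own livers, differed by limma for 3 of the 10 genes, against 31.0% of all genes, and for none of the 3 with slide as a random block. The KO effect minus the DEN effect was 3.94 for Slc1a2, -2.39 for Lect2 and -2.07 for Rhbg, with adjusted p of 0.435, 0.383 and 0.143 under that block. For Rhbg, KO tumours stood at -0.28 against DEN tumours, and KO livers at 1.80 against WT livers.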

How the results depend on the processing

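No paired analysis was possible because sample labels pair nothing across groups. Under alternatives other than leaving out a mouse, 528 values of single genes among the 10 kept their direction and their side of the threshold, 40 lost their call, 6 gained one and 11 changed sign. With slide as a random block and each tumour as a sample, the genes that passed numbered 3 in KO tumours against KO livers, 0 in DEN tumours against WT livers, 1 in KO against DEN tumours (Axin2), 0 in KO against WT livers and 0 for the difference of the tumour effects (by limma 6, 1 and 1 at an unadjusted p under 0.05 where 0 passed). KO against DEN tumours gave 1 with scan day as a block and 2 within scan day 1, where the changes are the same and only their spread differs. KO against WT livers gave 4 under normexp with quantile scaling and 2 without the bright slide (Axin2 and Rhbg). Leaving out 1 mouse gave 9 to 10 in KO tumours against KO livers, 7 to 8 in DEN tumours against WT livers, 4 to 5 between the tumours, 1 to 2 between the livers and 3 to 4 for the difference, with KO tumour mouse 5 as the mouse that gave 2 between the livers. Without the KO tumours of the bright slide 7 passed against KO livers, Oat, Slc1a2 and Znrf3 being lost, with the same changes as within scan day 1. Without DEN tumour 5, 9 fell against WT livers and 4 differed between the tumour effects. Values that changed sign were all of genes that had not passed, except the last pair. They were the Axin2 difference (-0.034 under normexp, -0.031 without KO tumour mouse 5, and -0.031 to 0.53 over all mice left out), the Lgr5 difference (0.078 without the bright slide, 0.23 without KO tumour mouse 4, and -1.41 to 0.23 over all mice), Tbx3 in KO against DEN tumours (-0.25 with the scan day block or within scan day 1, -0.58 without DEN mouse 3 and up to 1.02 without another mouse) and as a difference (-0.36 without DEN mouse 3, up to 1.25), and Oat in KO against DEN tumours (-0.095 without DEN mouse 3, up to 1.63). Slc1a2 in KO against WT livers was -0.012 under normexp, -0.013 scaled on probes above background and -0.13 on the mean of its probes, and -0.15 (KO liver 4) to 0.11 with 1 mouse left out. Znrf3 in KO against DEN tumours was 0.13 under normexp, 0.075 with the scan day block or within scan day 1, 0.49 without the bright slide, and -0.43 to 0.16 (KO tumour mouse 5) with 1 mouse left out. Tcf7l2, on the mean of its probes, was -0.57 in DEN tumours against WT livers, where it did not pass. In KO against DEN tumours Tcf7l2 was 0.77 on that mean and passed in the opposite direction (adjusted p 0.00577). The causes were not tested. Normexp with quantile scaling moved the median of all genes to -0.01 in KO tumours against KO livers (-0.22 as reported) and to -0.04 against DEN tumours (-0.33 as reported). It gave 601 genes higher and 1144 lower between the livers (431 and 1568 as reported) and 3661 and 3427 for the difference (2984 and 4297 as reported). Over all genes, slide as a random block left 6660 called in KO tumours, 422 in DEN tumours, 11 between the livers and 809 for the difference, and 3190 were called between the livers without the bright slide. Comparisons with WT livers have no value with the scan day block or within scan day 1, and Znrf3 none where probes had to be above background throughout a group. Readings not well above background limit Znrf3, Axin2, Lgr5, Slc1a2 and Tbx3 in single tumours.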
